A study of Caenorhabditis elegans with 2 samples.

Results

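The 678 peaks described here are strong ChIP-seq peaks of the tagged protein F13C5.2 that were found in biological replicate 3 but not among the equally many strongest peaks of replicate 2. The 30000 peaks deposited for replicate 3 were ranked by their signal value, and as many of the highest were taken as the reproducible list of the series holds peaks. A peak was kept where it shared no base with any of the equally many highest peaks of replicate 2. The other 1172 top peaks of replicate 3 are called shared top peaks, and the reverse selection gave 704 strong peaks of replicate 2 only. The peaks were thus selected on the signal values of both lists, so their ranks in both lists are given as a description, and the comparisons rest on genome position, annotation and sequence, which the selection did not use.

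All data came from 1 group of samples, early Caenorhabditis elegans embryos of mixed sex, collected as whole organisms 1 hour after synchronization by egg bleaching. The strain, OP605, has the genotype unc-119(tm4063) III; wgIs605, in which the integrated transgene wgIs605 expresses F13C5.2 with a GFP-FLAG tag at its C-terminus, and chromatin was recovered with an antibody against GFP. The series holds biological replicates 2 and 3 of this group and no second genotype or treatment, so both replicates carry the unc-119 allele and the transgene. The peaks report the tagged transgene product in a mixture of all embryonic cells, and no untagged strain or separate list of control peaks was analysed.

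F13C5.2 is annotated as a bromodomain protein, and bromodomains bind acetylated lysines such as those on histone tails near active promoters. ChIP-seq recovers DNA crosslinked to a protein, and a peak is an interval scored for recovered DNA over a control. The full lists hold background intervals as well as peaks, so that replicates can be compared by rank. The 678 peaks had a −log10 q-value of at least 2.95, while the median of the whole replicate 3 list was 0.321, so an entry far down a list is called a peak here without being shown to exceed the control. Why a given peak was strong in 1 replicate and not in the other was not tested.

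The sequences around some of the strongest of these peaks are printed as examples from the top of the set, which need not stand for the rest. Each is 50 bases on either side of the summit, the position of highest signal, read from the RefSeq sequence of the same assembly as the ce11 lists (WBcel235), on the forward strand from 5′ to 3′, with CG dinucleotides in capitals. The name is that of the protein-coding gene whose annotated 5′ end is nearest. The first 4 are the strongest replicate 3 only peaks, on chromosomes II to V and X, that no replicate 2 peak overlapped.
spat-3 (chrX:4606432-4606532): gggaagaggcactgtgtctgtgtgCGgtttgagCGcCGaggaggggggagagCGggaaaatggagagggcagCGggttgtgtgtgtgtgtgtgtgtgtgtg
eef-1G (chrV:10965640-10965740): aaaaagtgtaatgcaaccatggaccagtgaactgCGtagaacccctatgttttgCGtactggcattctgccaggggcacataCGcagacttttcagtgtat
Y49G5A.1 (chrV:5284458-5284558): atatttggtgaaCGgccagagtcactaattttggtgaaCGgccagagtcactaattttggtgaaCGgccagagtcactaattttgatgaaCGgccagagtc
Y54G2A.26 (chrIV:2997511-2997611): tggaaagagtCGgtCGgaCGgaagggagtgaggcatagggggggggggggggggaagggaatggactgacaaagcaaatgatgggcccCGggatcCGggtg

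The spat-3 window had 61.4% GC and ended in a run of alternating T and G. In the Y49G5A.1 window, 96.0% of bases matched the base 26 positions further on, so it is a tandem repeat with a 26-base unit. The Y54G2A.26 window had 64.4% GC and held an unbroken run of 17 G. The eef-1G window, with 46.5% GC, had no single-base run over 5. The next 4 are the strongest, chosen in the same way, that a lower-ranked replicate 2 peak did overlap.
cmd-1 (chrV:1151424-1151524): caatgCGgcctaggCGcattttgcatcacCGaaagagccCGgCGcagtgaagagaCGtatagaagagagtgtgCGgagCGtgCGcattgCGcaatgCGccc
ntl-2 (chrII:4376833-4376933): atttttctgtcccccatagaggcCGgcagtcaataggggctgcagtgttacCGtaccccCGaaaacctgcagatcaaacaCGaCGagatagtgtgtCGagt
hil-3 (chrX:8156091-8156191): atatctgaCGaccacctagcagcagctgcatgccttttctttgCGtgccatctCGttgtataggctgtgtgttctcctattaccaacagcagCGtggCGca
zip-2 (chrIII:835947-836047): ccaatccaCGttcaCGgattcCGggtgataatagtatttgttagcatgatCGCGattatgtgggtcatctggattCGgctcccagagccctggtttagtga

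These windows had between 48.5% GC at zip-2 and 59.4% at cmd-1, and the cmd-1 window held 11 CG dinucleotides. For contrast, the 2 strongest peaks of replicate 2 only, chosen in the same way, had 27.7% GC near lgc-26 and 53.5% near ceh-38.
lgc-26 (chrV:265445-265545): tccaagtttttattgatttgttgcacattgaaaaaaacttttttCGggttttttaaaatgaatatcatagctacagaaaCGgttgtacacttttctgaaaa
ceh-38 (chrII:6951587-6951687): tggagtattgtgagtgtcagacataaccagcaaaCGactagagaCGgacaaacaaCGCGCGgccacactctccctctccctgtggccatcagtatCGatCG

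The letters GAGAGA, or TCTCTC on the forward strand, were frequent around the replicate 3 only summits. The 2 strongest peaks with these letters in the printed window, near tps-1 and tbc-12, are shown with them in capitals.
tps-1 (chrX:17479948-17480048): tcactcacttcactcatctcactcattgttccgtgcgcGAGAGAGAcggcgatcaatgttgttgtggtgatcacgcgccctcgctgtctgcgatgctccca
tbc-12 (chrX:2536588-2536688): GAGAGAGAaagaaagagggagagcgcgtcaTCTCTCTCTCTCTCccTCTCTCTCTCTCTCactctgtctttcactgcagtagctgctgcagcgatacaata

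Most replicate 3 only peaks overlapped a lower-ranked entry of the replicate 2 list, which may be a weak peak or background. Of the 678, 626 were overlapped by some peak of the full replicate 2 list, which is 92.3% (95% Wilson interval 90.1 to 94.1, counting error only), against 51.1% of the whole replicate 3 list. The best overlapping replicate 2 peak had a median rank of 3777 (interquartile range 2501 to 6794) and ranged from 1851 to 29175. Ranks 1851 to 3700 held 306 of them, ranks 3701 to 7400 held 175, ranks 7401 to 15000 held 97 and ranks 15001 to 30000 held 48. The remaining 52 peaks (7.67%, 5.90 to 9.92) overlapped no replicate 2 peak at all. The peaks of replicate 2 only gave like figures in the replicate 3 list, with 663 of 704 overlapped (94.2%, 92.2 to 95.7) at a median rank of 3758.

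**Figure D1:**
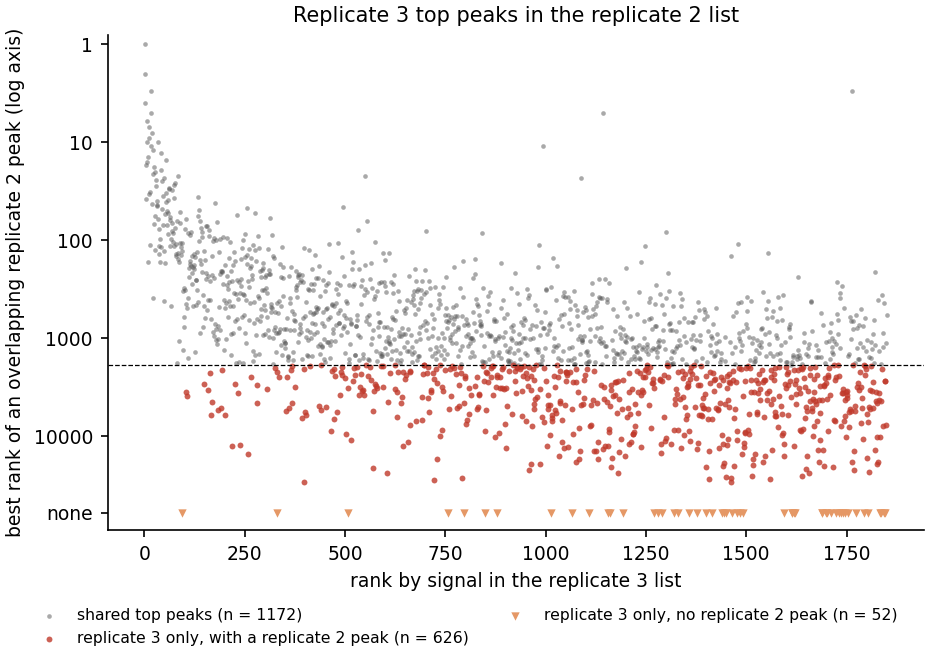
Each point is 1 of the strongest replicate 3 peaks, placed by its rank in the replicate 3 list (x axis) and by the best rank of an overlapping replicate 2 peak (y axis, log scale, rank 1 at the top). Grey points above the dashed line are the 1172 shared top peaks, red points below it are the 626 replicate 3 only peaks with a lower-ranked replicate 2 peak, and orange triangles are the 52 with none.

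Within the replicate 3 list the 678 peaks lay between ranks 93 and 1848 with a median of 1270, and the shared top peaks had a median rank of 686. Only 52 of the first 500 replicate 3 ranks were replicate 3 only, against 164 of the 500 that follow and 462 of the top ranks past 1000. The signal value at the lower end was close to continuous. Replicate 3 rank 1848, the last of the selected peaks, upstream of the adenylyl cyclase gene acy-3, had 45.19 and rank 1851, just outside, had 45.14. On the replicate 2 side, the peak near Y75B8A.6 fell outside at replicate 2 rank 1851 with a signal of 40.02, and the shared peak near Y66D12A.10 fell inside 1 rank higher, also with 40.02. The next selected peaks, at calm-1 and rsp-2, had replicate 2 ranks 1852 and 1856.

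The reproducible peak list of the series, made by the authors with the irreproducible discovery rate (IDR) procedure that compares ranks between replicates, held 328 of the 678 peaks (48.4%, 44.6 to 52.1). It held 1161 of the 1172 shared top peaks (99.1%) and 354 of the 704 replicate 2 only peaks (50.3%, 46.6 to 54). In the list called on both replicates together, 672 of the 678 had an overlapping peak. Membership of that list depends on the same signals that chose the peaks, so these shares are descriptive. The 6 peaks without a pooled peak lay nearest to R11H6.2, T19D12.6, duxl-1, faah-5, rbc-1 and rrf-3.

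A few peaks lay just beside a replicate 2 top peak. Of the 678, 21 (3.10%, 2.03 to 4.69) lay within 500 bp of a replicate 2 top peak without touching it, while 436 (64.3%, 60.6 to 67.8) lay over 10000 bp from any. Among the 52 with no overlap, the gap to the nearest replicate 2 peak ranged from 13 to 91573 bp with a median of 378 bp, and 30 of the 52 had one within 500 bp. The 678 peaks were also not all separate regions: 43 of them (6.34%) overlapped another of the 678, so that some regions count more than once.

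The strongest of all, at replicate 3 rank 93, lay at -554 bp from a 5′ end of spat-3 on the X chromosome (chrX:4606254-4606709), a gene encoding a RING-finger protein of the Polycomb class. Its replicate 3 signal was 130, no replicate 2 peak overlapped it, and the nearest replicate 2 peak of any rank was 96 bp away. A neighbouring replicate 3 only peak at spat-3, rank 239 with signal 98.2, overlapped a replicate 2 peak of rank 12346 with signal 17.1. Both lay under pooled rank 335, so the spat-3 promoter was strong in replicate 3 and far down the replicate 2 list.

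The next peaks stood outside promoters more often than in them. Rank 104 lay at -4797 bp from cmd-1, the calmodulin gene, inside an annotated non-coding gene, with signal 124 in replicate 3 and 29.3 in replicate 2. Rank 107 lay at -418 bp from ntl-2, which encodes a subunit of the CCR4-NOT complex that shortens mRNA poly(A) tails, with 124 and 28.3. Rank 148 lay -3028 bp from the linker histone gene hil-3 beside the tRNA genes F22F1.t5, F22F1.t6 and F22F1.t7, with 113 and 31.8, and only 65 bp from a replicate 2 top peak. Signal values of the 2 lists have no common scale, so the values stand side by side without a fold.

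Rank 160 was in a coding exon of zip-2, a bZIP transcription factor gene, with a signal of 110 in replicate 3 and 30.1 in replicate 2. Rank 165 was in the promoter of mdl-1, a gene of a MAD-like bHLH transcription factor, with 110 and 36.2. Rank 166 lay at -5464 bp from the trehalose-phosphate synthase gene tps-1, with 110 and 23.3. Of the 15 strongest peaks, 7 had their summit in a coding promoter window, at spat-3, ntl-2, mdl-1, eat-16, lin-66, sto-4 and myrf-1, and all 15 were in the IDR list. Their GC content in the 100 bp on each side of the summit ran from 46.8% at csnk-1 to 60.2% at cmd-1.

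Among the 52 peaks with no replicate 2 overlap, the second strongest was at eef-1G, the translation elongation factor 1 gamma gene, at -29 bp (chrV:10965462-10965917, rank 330, signal 88.4). The nearest replicate 2 peak was 3762 bp away, yet its pooled rank was 480. The third, at rank 507, was the tandem repeat near Y49G5A.1 with a signal of 74.8 in replicate 3, and its pooled rank was 9812 with a pooled signal of 33.3. The eef-1G and Y49G5A.1 peaks therefore differed in whether the pooled reads kept a strong peak. Others were in introns of Y43D4A.5, beside the tRNA gene Y43D4A.t2 (rank 849), and of the nuclear hormone receptor gene nhr-91 (rank 1013), and at -2483 bp from the high mobility group gene hmg-1.1 (rank 798). Of these 52 peaks, 18 lay in coding promoters (34.6%, 23.2 to 48.2), against 174 of 306 (56.9%, 51.3 to 62.3) of those at replicate 2 ranks 1851 to 3700.

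Replicate 3 only peaks lay in coding promoters less often than the shared top peaks. A summit counted as in a promoter where it fell between 1000 bp before and 200 bp after the start of some protein-coding transcript. Such windows held the summit of 344 of the 678 peaks (50.7%, 47.0 to 54.5), of 788 of the 1172 shared top peaks (67.2%, 64.5 to 69.9) and of 514 of the 704 replicate 2 only peaks (73.0%, 69.6 to 76.2). The background share in the whole replicate 3 list was 33.4%. The difference was -16.5 percentage points from the shared peaks (95% Newcombe interval -21.1 to -11.9) and -22.3 points from the replicate 2 only peaks (-27.2 to -17.2). These intervals treat peaks as independent counts and come from 1 library of each replicate, so no test over samples was possible.

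The lower promoter share was seen at each depth of the replicate 3 list. In ranks 1 to 500 it was 44.2% of 52 replicate 3 only peaks (31.6 to 57.7) against 62.5% of 448 shared peaks (57.9 to 66.9). In the 500 ranks that follow, the shares were 52.4% of 164 (44.8 to 59.9) and 71.7% of 336 (66.7 to 76.3). In the top ranks past 1000 they were 50.9% of 462 and 68.8% of 388. The replicate 3 only share was therefore lower in all 3 bands, and the intervals did not overlap in any of them.

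The peaks outside promoters were mostly intergenic or intronic. Intergenic summits made up 24.0% of the replicate 3 only peaks, 14.3% of the shared peaks and 13.6% of the replicate 2 only peaks, a difference of 9.71 points from the shared peaks (5.98 to 13.6). Introns held 17%, 13.3% and 9.23%, with a difference of 3.65 points from the shared peaks (0.302 to 7.17). In the whole replicate 3 list 19.6% of summits were intergenic and 26.9% intronic, so the intron share of the replicate 3 only peaks lay below that of the list. Annotated non-coding genes held 5.90% against 4.18% of the shared peaks, with an interval that included 0 (-0.297 to 3.99). Few peaks lay in the other classes, with 7 in 3′ UTRs, 6 in coding exons and 3 in 5′ UTRs, while 15.3% of the lower-ranked replicate 3 peaks were in coding exons. The 3′ UTR share was 1.03% against 0.0853% (1 peak) of the shared peaks, a difference of 0.947 points (0.284 to 2.03). In the whole replicate 3 list it was 2.55%. The nearest 5′ end was a median of 744 bp away, against 340 bp for the shared peaks and 256 bp for the replicate 2 only peaks. Inside the promoter windows the position was alike, with medians of -194, -199 and -162 bp.

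**Figure D2:**
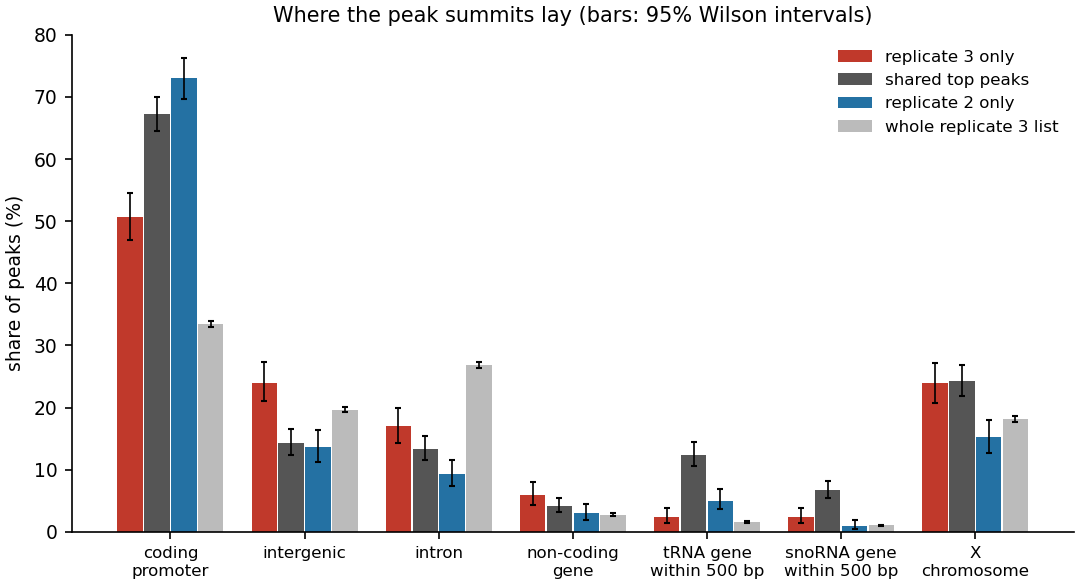
Bars give the share of peaks (y axis, percent) with a summit in each location or within 500 bp of a small RNA gene (x axis) for 4 sets, with 95% Wilson intervals as error bars. The 678 replicate 3 only peaks had a promoter share of 50.7%, below the 67.2% of the shared top peaks and above the 33.4% of the whole list, and lacked the tRNA share of 12.4% seen in the shared peaks.

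The X chromosome had the highest density of these peaks, followed by I, and its share was close to that among the shared peaks. Replicate 3 only peaks numbered 162 on X (23.9%, 20.8 to 27.2), where the whole replicate 3 list had 18.2%. The shared top peaks had 24.3% on X, a difference of -0.424 points (-4.4 to 3.68), and the replicate 2 only peaks had 15.2%, a difference of 8.69 points (4.52 to 12.9). Per megabase there were 9.14 replicate 3 only peaks on X, 8.49 on I, 6.96 on III, 6.29 on IV, 5.89 on II and 4.4 on V. Without the peaks within 500 bp of a tRNA gene, the X share was 23.7% of the replicate 3 only, 20.6% of the shared and 13.8% of the replicate 2 only peaks. In the middle 50% of each chromosome lay 53.4% of the replicate 3 only peaks (49.6 to 57.1), 54.9% of the shared peaks (52.1 to 57.8), 62.2% of the replicate 2 only peaks (58.6 to 65.7) and 46.2% of the whole list.

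**Figure D3:**
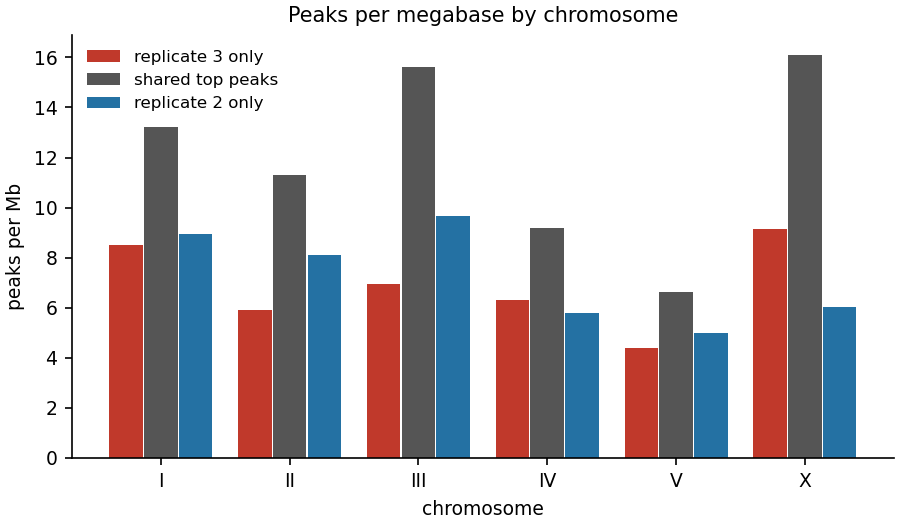
Bars give the number of peaks per megabase (y axis) on each chromosome (x axis) for the replicate 3 only, shared and replicate 2 only peaks. Replicate 3 only peaks were densest on X at 9.14 per megabase, where replicate 2 only peaks had 6.04, and sparsest on V at 4.4.

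The sequence around the summits was richer in G and C in replicate 3 only peaks than in replicate 2 only peaks. Within 100 bp of the summit the median GC content was 47.3% (interquartile range 41.8 to 52.2) in replicate 3 only peaks, 45.8% (40.2 to 50.2) in the shared peaks and 39.8% (34.8 to 44.3) in replicate 2 only peaks. The lower-ranked replicate 3 peaks had a median of 39.3%. Windows of at least 50% GC made up 35.8% of the replicate 3 only, 27.6% of the shared and 5.68% of the replicate 2 only peaks. The excess over replicate 2 only peaks was seen in promoters, with medians of 45.8% and 38.3%, in introns with 49.3% and 43.3%, on X with 50.2% and 42.8%, and on the autosomes with 46.3% and 38.8%. The excess of 1.49 points over the shared peaks (0.789 to 2.61, from order-statistic intervals of the medians) depended on the window, and was 0 when only 50 bp on each side were read.

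**Figure D4:**
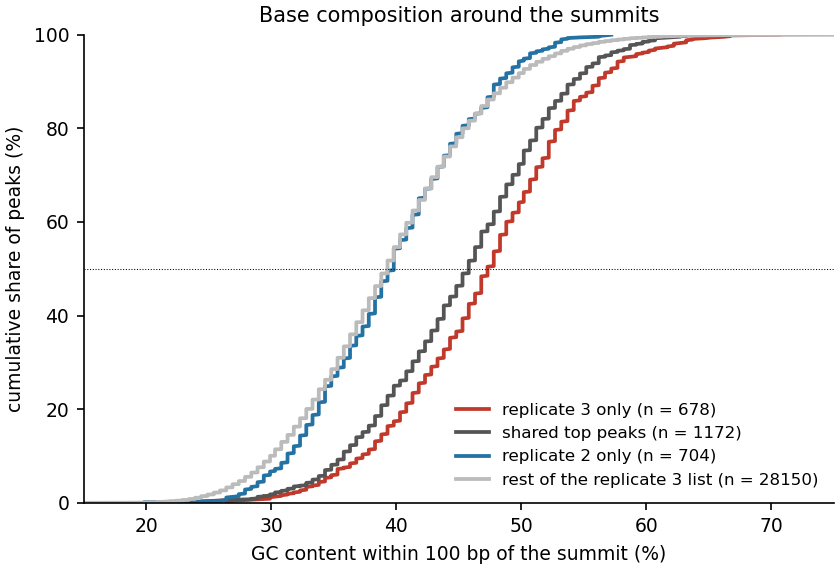
Curves give the cumulative share of peaks (y axis, percent) up to a given GC content within 100 bp of the summit (x axis, percent) for 4 sets, and the dotted line marks the median. The replicate 3 only curve lies furthest right with a median of 47.3%, close to the shared peaks at 45.8%. Replicate 2 only peaks at 39.8% lie near the rest of the replicate 3 list at 39.3%, which comes from the other replicate. In the replicate 2 list itself, ranks 1851 to 3700 had a median of 39.3% and ranks 3701 to 7400 had 36.3%.

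The replicate 3 and replicate 2 lists differed in the same direction in each rank band examined, down to rank 7400. The first 500 ranks had a median GC of 48.3% in replicate 3 and 44.3% in replicate 2, the top ranks past 1000 had 44.8% and 41.8%, and ranks 3701 to 7400 had 40.8% and 36.3%. GC content, replicate and peak set thus moved together. Since each replicate is 1 library, a base composition bias of the libraries and a difference in binding cannot be told apart.

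Location and X share were therefore also read within windows of like GC. The promoter share of replicate 3 only peaks was 70.3% under 40% GC, 56.9% from 40% to 45%, 50.3% from 45% to 50% and 38.3% from 50% upwards. The shared peaks had 87.7%, 73.6%, 53.8% and 56.5% in the same classes, which was higher in each, with overlapping intervals from 45% to 50%. Replicate 2 only peaks had 84%, 64.7%, 53.2% and 57.5%, also higher in each. Their intervals overlapped those of the replicate 3 only peaks in all classes from 40% GC upwards. Peaks on X made up 11.9%, 11.5%, 26.7% and 34.2% of the replicate 3 only peaks and 10.2%, 17.9%, 18.3% and 42.5% of the replicate 2 only peaks. The larger X share of replicate 3 only peaks was thus not seen in each GC class, and the intervals overlapped in all 4. The shared peaks had 9.22%, 23.6%, 27.9% and 35.2% on X, above the replicate 3 only peaks from 40% to 45% GC, where the intervals were 18.8 to 29.2% and 7.12 to 18.2%.

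**Figure D5:**
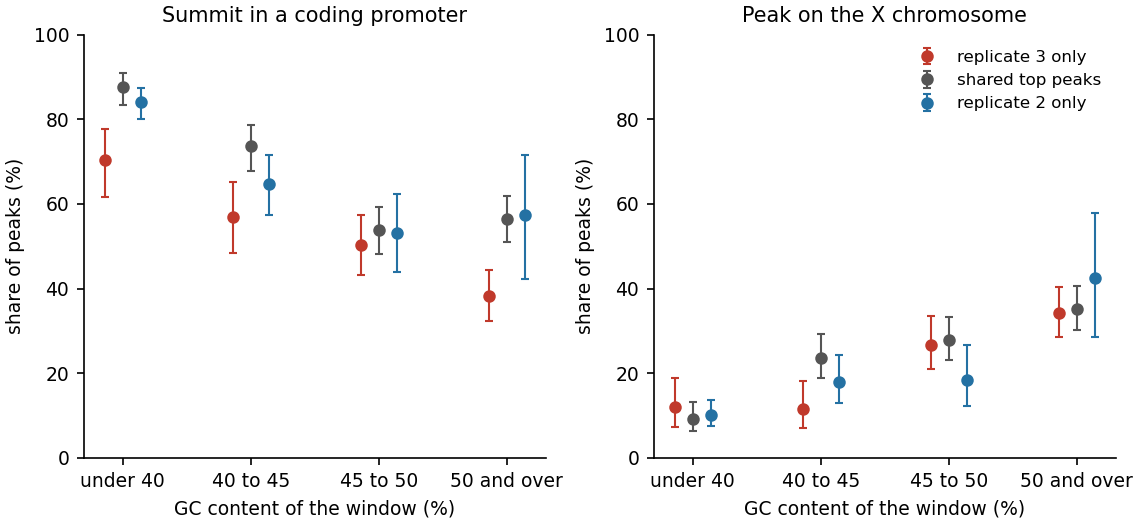
Points give the share of peaks in a coding promoter (left) and on X (right) on the y axis, in percent, within 4 classes of GC content (x axis), with 95% Wilson intervals. Replicate 3 only peaks had the lowest promoter share in each class, from 70.3% to 38.3%. Their intervals overlapped those of replicate 2 only peaks from 40% GC upwards and those of shared peaks from 45% to 50%. The X share was highest from 50% GC upwards in all 3 sets.

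GAGAGA repeats were common around all strong peaks. The letters GAGAGA on either strand lay in the windows reaching 100 bp from the summit of 294 of the 678 peaks (43.4%, 39.7 to 47.1), of 37.5% of the shared peaks (34.7 to 40.3) and of 35.5% of the replicate 2 only peaks (32.1 to 39.1), against 18.4% of the whole replicate 3 list. The tps-1 and tbc-12 windows printed above are examples. GCGCGC was in 11.1% of replicate 3 only and 16% of shared windows, against 4.05% of the whole list. TTTCAG was in 13.7% of replicate 3 only, 16.6% of shared and 22.3% of replicate 2 only windows, against 28.8% of the whole list. TTTTTTTT was in 10.6%, 11.3% and 17.8%, against 18.2% of the whole list, and both strings are poor in G and C. For both, the interval of the difference from the shared peaks included 0. GTTCGANNC, the core of the tRNA B box, was in 2.95% of replicate 3 only and 11.2% of shared windows, and in 2.36% of the whole list. The E-box CACGTG was in 5.31% of replicate 3 only windows and 4.31% of the whole list. The AP-1 letters TGACTCA were in 1.62% and 1.83%, and the forkhead letters GTAAACA in 2.06% and 2.34%. A match to letters is a description of the window and not a binding site.

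Genes of transfer RNAs, which RNA polymerase III transcribes, lay near fewer replicate 3 only peaks than shared peaks. Of the 678 summits, 16 (2.36%, 1.46 to 3.8) lay within 500 bp of a tRNA gene, against 12.4% of the shared peaks, 4.97% of the replicate 2 only peaks and 1.61% of the whole list. The difference from the shared peaks was -10 points (-12.2 to -7.74), and the shares were 5.77% against 19.6% in the first 500 ranks, 3.05% against 10.4% in the 500 that follow and 1.73% against 5.67% in the top ranks past 1000. The strongest were beside F22F1.t6 (rank 148), F22G12.t1 (rank 331, replicate 2 rank 2200), F14B6.t2 (rank 441, replicate 2 rank 1868), F10C1.t1 (rank 708, replicate 2 rank 1957) and C35E7.t1 (rank 715, replicate 2 rank 3377). Of the 16, 2 had no overlapping replicate 2 peak, at Y43D4A.t2 and K08B5.t1, beside 7.67% of all 678 peaks.

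Genes of small nucleolar RNAs (snoRNAs), which guide the modification of ribosomal RNA, also lay within 500 bp of 16 of the 678 summits (2.36%), with 1.01% in the whole list. The shared peaks had 6.66%, a difference of -4.30 points (-6.11 to -2.36), and the replicate 2 only peaks had 0.852%, a difference of 1.51 points (0.165 to 3.02). The strongest were at Y23H5B.10 (rank 184, signal 107, replicate 2 rank 5385) and at ZK546.18 in an intron of ZK546.19 (rank 227, signal 99.4, replicate 2 rank 2927). C26C6.13, C01B10.48 and Y74C9A.6 followed at ranks 365, 829 and 851. All 16 overlapped a lower-ranked entry of the replicate 2 list, at ranks from 2102 to 15691, as did 92.3% of the 678 peaks.

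MicroRNA genes were near 10 of the 678 summits (1.47%), not distinguishable from the 1.19% of the shared peaks (difference 0.280 points, -0.765 to 1.59), with 0.460% in the whole list. The difference from the lower-ranked replicate 3 peaks was 1.07 points (0.393 to 2.29). The strongest lay beside cel-mir-55 and cel-mir-56 in an intron of F09A5.3 (rank 282, signal 92.4, replicate 2 rank 4606). A peak beside lin-4, the heterochronic microRNA gene in an intron of a host gene, had rank 1415 with a signal of 50.1 and no overlapping replicate 2 peak. A peak at rank 1802 lay beside cel-mir-35, cel-mir-36 and cel-mir-37, members of a family needed for embryonic development, with replicate 2 rank 5937. Others were beside cel-mir-71, cel-mir-87, cel-mir-86, cel-mir-45 and cel-mir-73. Genes of small nuclear RNAs were near 3 summits (0.442%), against 1.71% of the shared peaks (difference -1.26 points, -2.22 to -0.224) and 0.210% of the whole list. The 3 were at sls-2.5, sls-2.18 and T08G5.11, the first pair of which carry the spliced leader.

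Peaks of a width other than the usual 456 bp of the replicate 3 list numbered 3 of 678 (0.442%), against 120 of 1172 shared peaks (10.2%) and 0.417% of the whole list. They were concentrated at the top of the list: in ranks 1 to 500 they were 3 of 52 replicate 3 only and 117 of 448 shared peaks. The intervals in that band were 1.98 to 15.6% and 22.3 to 30.4%.

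The promoters held by replicate 3 only peaks belonged mostly to genes without a top peak of replicate 2. A summit lay in a promoter window of 414 of the 19973 protein-coding genes, which is 2.07%, against 5.34% for the shared peaks and 3.62% for the replicate 2 only peaks. No replicate 2 top summit lay in the windows of 399 of the 414 genes (96.4%), a count that the selection largely fixes. The remaining 15 genes had a replicate 2 top summit elsewhere in a window, and 10 of the 414 also had a shared summit.

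Ribosomal protein and translation factor genes had fewer replicate 3 only than shared summits, as had all coding genes together. Of 81 cytosolic ribosomal protein genes, 7 had a replicate 3 only summit in a promoter (8.64%), 41 a shared one (50.6%) and 15 a replicate 2 only one (18.5%), beside 2.07% and 5.34% of all coding genes for the first 2 sets. The 3 strongest were rps-18 (rank 491, signal 76.2, replicate 2 rank 2213), and rpl-39 with rps-30, which share 1 summit (rank 632, signal 69.9, replicate 2 rank 2176). Of 41 translation factor genes 2 had a replicate 3 only summit and 18 a shared one; the 2 were eef-1G and eif-4A3, the latter at rank 1441 with replicate 2 rank 19892. Mitochondrial ribosomal genes gave 2 against 12 of 70, and respiratory chain genes gave 4 against 12 of 44, among them cyc-2.1, a cytochrome c gene (rank 626), and atp-1 (rank 953).

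Of 54 genes in the splicing list, 8 had a replicate 3 only summit (14.8%), beside 10 with a shared summit and 6 with a replicate 2 only one. The strongest was prp-8, which encodes a core spliceosome protein (rank 661, signal 68.8, replicate 2 rank 2195), followed by lsm-1, whose product belongs to a complex of mRNA decay and whose summit was shared with rps-9 (rank 936), and rsp-8, an SR protein gene (rank 1037). The SR protein genes rsp-1 and rsp-2 shared 1 summit. Of 31 aminoacyl-tRNA synthetase genes 4 had a replicate 3 only summit, at yars-2, mars-1, vars-1 and aars-2, and 3 a shared one. Proteasome genes gave 3 of 33 (9.09%), at rpn-2, pas-6 and rpt-6, beside 6 shared and 7 replicate 2 only. RNA polymerase genes gave 0 of 20 beside 3 shared and 4 replicate 2 only. Among all coding genes the shares were 2.07% for replicate 3 only, 5.34% for shared and 3.62% for replicate 2 only summits. A list of 20 genes is too short for a count of 0 to show a lower share. These counts are small, 1 summit can count for several genes, and no list was tested.

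Among cell cycle genes, 3 of 58 had a replicate 3 only summit: cdk-4, a cyclin-dependent kinase gene (rank 401, signal 82.0, replicate 2 rank 5664), air-2, the Aurora B kinase gene (rank 1418), and cdc-7 (rank 1772). Histone genes gave 4 of 72, at his-37, his-59 with his-60, and his-72, and each of these 4 promoters also had a replicate 2 top summit. The heat shock genes hsp-16.2 and hsp-16.41, which are divergent neighbours, shared 1 summit at rank 1698 with replicate 2 rank 2819. Homeobox genes gave 3 of 81 (3.7%), at ceh-32 (rank 730, replicate 2 rank 16871), ceh-20 (rank 991) and ceh-74 (rank 1612). The ceh-74 peak had a pooled rank of 28788, the furthest down the pooled list of all replicate 3 only peaks with a pooled peak. A shared summit lay at 1 homeobox gene and a replicate 2 only summit at 2. In the other lists named here shared summits were more numerous, with 8 cell cycle, 9 histone and 6 of 22 heat shock genes. Replicate 3 only summits lay at 5.17% of cell cycle, 5.56% of histone and 9.09% of heat shock genes. All coding genes had 2.07% for replicate 3 only and 5.34% for shared summits.

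Large gene families such as the chemoreceptors had few replicate 3 only summits, and few shared or replicate 2 only ones. Of 1365 chemoreceptor genes 4 had a replicate 3 only summit (0.293%), of 269 nuclear hormone receptor genes 4 (1.49%), of 173 collagen genes 1 (0.578%) and of 287 synaptic and neuronal genes 4 (1.39%), all below the 2.07% of all coding genes. In the same order, the shared shares were 0.586%, 3.35%, 2.31% and 0.697%, below 5.34% of all coding genes. The replicate 2 only shares were 0.147%, 0.372%, 0.578% and 1.74%, below 3.62%. The low shares were thus not particular to replicate 3 only peaks. The 4 nuclear hormone receptor genes were nhr-40 (rank 736, replicate 2 rank 1876), nhr-32 (rank 737, replicate 2 rank 10008), nhr-190 and nhr-3. C-type lectin genes gave 0 of 240, insulin peptide genes 0 of 38 and cytochrome P450, UGT and GST genes 0 of 185. The insulin list is too short for a count of 0 to show a lower share, and no list was tested. F-box and MATH genes gave 5 of 401 (1.25%) and neuropeptide receptor genes 1 of 79 (1.27%, npr-23), also below the share of all coding genes. Muscle genes gave 1 of 41 (2.44%, act-4) and the list of P granule and germline RNA genes 3 of 93 (3.23%), both above that share on very few genes. The 3 counted in the P granule list were pqn-87, pqn-15 and pqn-27, which are named for prion-like domains rich in glutamine and asparagine. That list took in every gene with a pqn name, and no other gene in it had a replicate 3 only summit.

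In 12 genes, 2 replicate 3 only summits lay in promoter windows: F42A6.6, Y43F8C.3, alg-1, cyn-5, din-1, hil-7, klp-7, mrp-2, ntl-2, sax-7, spat-3 and ubl-5. In 10 of them the 2 peaks were neighbours under 1 pooled peak, as at alg-1, an Argonaute gene of the microRNA pathway, with ranks 492 and 1261 over 1 replicate 2 peak of rank 1941. At sax-7, a cell adhesion gene, the 2 peaks stood at different 5′ ends, with ranks 543 and 658 and replicate 2 ranks 3419 and 11487. At din-1, a nuclear receptor corepressor gene, they had ranks 1434 and 1721 and also lay at different 5′ ends. These pairs are therefore mostly 1 region each.

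Few of the replicate 3 only peaks lay in wider groups, and no like count was made for the shared peaks. With gaps of up to 5000 bp allowed, the 678 peaks formed 605 groups. Of these, 547 held 1 peak, 49 held 2 and 9 held 3 or more, with 33 peaks in those 9. Overlapping peaks were counted separately here, and 43 of the 678 overlapped another. The groups at T09B4.5, Y54G2A.73 and dyn-1 held 3 peaks only because 2 of them overlapped each other and the same replicate 2 peak. The largest lay upstream of and inside egl-27, which encodes an MTA-like chromatin protein, with 7 peaks over chrII:6823885-6839286 at replicate 3 ranks from 707 to 1824. Of these 7, 6 overlapped a replicate 2 peak, at ranks from 2409 to 6129, beside 92.3% of all 678. None of the 7 lay in a coding promoter window. In the introns of ppfr-1, a protein phosphatase 4 regulatory subunit gene, 5 peaks at ranks 453 to 1543 lay over chrI:9380146-9383393. Their replicate 2 ranks ran from 2538 to 4962. Of these 5, 3 formed a chain of overlapping peaks over 1 replicate 2 peak, of rank 2752. Further groups lay at lsy-22, at the cyclin-dependent kinase inhibitor gene cki-1 and at the dynamin gene dyn-1, and those at cki-1 and dyn-1 each had 1 peak in a promoter.

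No replicate 3 only peak lay within 2000 bp of F13C5.2, where 2 shared peaks had ranks 5 and 260, or of unc-119, where 1 replicate 2 only peak had rank 1743. How far the transgene reaches beyond these genes was not known here, so peaks further out were not checked against it. Reads from a transgene copy and from the endogenous gene cannot be told apart there.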

How the data were processed

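Peak lists of 2 ChIP-seq replicates (biological replicates 2 and 3) of 1 group were analysed on ce11. Each replicate list and the pooled list were called by the authors against 2 control alignments as input for IDR, and the IDR list was derived from them, per the deposited file descriptions. No source used here gives the peak caller, the aligner, their versions or the IDR threshold. In the deposited lists the signal value is a score whose scale is not given, and the deposited −log10 q-value was not used for ranking because it is tied at its maximum. The score ranked peaks within 1 list. Per the deposited file descriptions, the replicate and pooled lists hold peaks and background. Read depth is unknown.

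Ties in signal were ordered by position. Peaks shared a site with at least 1 common base. Annotation was Ensembl release 115 (WBcel235, the ce11 assembly) with 19973 protein-coding genes, and the sequence was from RefSeq. All 612 tRNA genes took their names from the RefSeq table by position. A summit in several classes counted as promoter first, then as UTR or coding exon (5′ UTR, exon, 3′ UTR), then intron, then non-coding gene, and otherwise as intergenic. Motifs were counted once per window on either strand. Shares have 95% Wilson intervals and differences 95% Newcombe intervals, which cover counting error only and are not adjusted for the number of comparisons.

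The peaks, the 23 gene lists and the 8 letter strings were chosen with earlier results of these data known. Named peaks are the 15 strongest, the 8 strongest without a replicate 2 peak, the 5 strongest near a tRNA or snoRNA gene, the 5 of best pooled rank, genes with 2 summits, up to 3 per gene list and those beside a threshold. Other members were named after their values were seen, among them the microRNA genes, the grouped peaks and the peaks without a pooled peak. Set functions were tested on simulated peaks. Tools were Python 3.11.15 with scipy 1.17.1, pandas 2.3.3, matplotlib 3.10.9 and numpy 2.4.6.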

Additional observations from a re-analysis of the deposited data

How the results depend on the processing

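The promoter, X, tRNA, snoRNA and GC differences from the shared peaks, the shares overlapped in replicate 2 and held in the IDR list, and the promoter, X and GC differences from replicate 2 only peaks were repeated, as far as each setting applied, with the 1000 or 3000 strongest peaks of each list, other overlap rules, ce10 lists where no annotation was needed, both sets limited to top ranks past the midpoint, merged peaks, stricter absence from replicate 2, and other windows and distances. Other comparisons were not repeated, and stricter absence and ce10 lists were not run against replicate 2 only peaks. None of the repeated values changed sign where the main interval excluded 0, apart from a GC difference of 0. Below, values are in percentage points for replicate 3 only minus shared peaks unless stated. Leaving out a replicate could not be run, since the selection needs both lists. No paired analysis was possible because there is 1 group.

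The promoter difference was -10.7 with the top 1000, -22.2 with the top 3000, -32.6 for peaks with no replicate 2 overlap, -21.5 for those outside the top 3700 of replicate 2, -7.65 with a window of -2000 to +500 bp and -3.5 (-12.5 to 5.54) in windows of 45 to 50% GC, which was chosen after seeing the data, as were all comparisons with replicate 2 only peaks. The X difference was 6.45 (-4.70 to 20.2) for peaks with no replicate 2 overlap. The tRNA difference was -13.4 with the top 1000, -7.56 with the top 3000, -8.53 (-12 to 0.778) with no replicate 2 overlap and -3.75 past the midpoint, and the snoRNA difference was -2.41 there and -6.66 (-8.23 to 0.344) with no replicate 2 overlap. Median GC differed by 3.48 with the top 1000, 2.49 past the midpoint, 2.52 over whole peaks and 0 within 50 bp of the summit.

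The share with any replicate 2 overlap was 98.1% with the top 1000, 80% with the top 3000 and 86.0% outside the top 3700. The share in the IDR list was 91.0% and 13.1% with the top 1000 and 3000, 52.2% with overlap of 50% of the length, 57.3% with summits within 100 bp, 34% past the midpoint, and 5.77% and 24.2% for the stricter absences. Against replicate 2 only peaks, the promoter difference was -2.94 (-14.5 to 8.76) in windows of 45 to 50% GC, and median GC differed by 9.45 with the top 1000 and 5.94 within 50 bp. The causes of these shifts were not tested. Unknown read depth limits any statement that a site is absent from replicate 2.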
